A study of Mus musculus with 3 samples.

Results

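Cells carry proteins that detect DNA or RNA outside the nucleus, and 10 genes of this system were examined in transfected mouse cells. The genes were Ddx58, Ifih1, Dhx58, Tlr3, Zbp1, Mavs, Tmem173, Tbk1, Irf3 and Trex1, given as a list of names, out of 22911 named genes on the arrays. They were found through the transcript accession of each probe, with older symbols used where needed (Ddx58 is now Rigi, and Tmem173 is now Sting1). All 10 were matched, with 16 probes in all. Gene expression was measured in Hepa1c1c7, a mouse hepatoma cell line, after transfection with 1 of 3 plasmids. The groups were an empty vector, a vector for Mst1r, which encodes a receptor tyrosine kinase, and a vector for Slpi, which encodes a secreted protease inhibitor, with 1 array each. All 3 groups received plasmid DNA with a lipid reagent, so the arrays hold no cells without transfected DNA, and the empty vector array served as the control. The question was whether the cells expressed genes that could detect transfected DNA or RNA, and whether these differed between the vectors.

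In the cytosol, the helicases encoded by Ddx58 and Ifih1 bind RNA of viral type and signal through Mavs, an adaptor on mitochondria, and Dhx58 encodes a related helicase that modulates them. Cytosolic DNA is detected by the enzyme cGAS (Mb21d1 on this array), whose product activates STING, encoded by Tmem173. Both routes meet at the kinase encoded by Tbk1, which activates the transcription factor encoded by Irf3 and thereby the interferon beta gene Ifnb1. Tlr3 encodes a receptor for double-stranded RNA in endosomes, Zbp1 a protein that binds Z-form nucleic acid and can start cell death, and Trex1 a nuclease that degrades DNA in the cytosol. Several of these genes are themselves induced by interferon.

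The promoters of 7 of these genes were searched for a sequence linked to interferon. RefSeq promoters (GRCm38.p6, 250 bases before to 50 after the start) were given for 7 of the 10 genes, and those of Dhx58, Tmem173 and Zbp1 were not used here. They were searched on both strands for GAAA followed by any 2 bases and a further GAAA, the core letters of the interferon-stimulated response element, printed in capitals, and 2 of the 7 genes held it (Ddx58 and Ifih1). Of all 32851 promoters in the table, 1131 (3.44%) held it. Shown are the promoters with a match, those of the adaptor Mavs and the factor Irf3 without one, and those of Ifnb1 and of Ifit3, an interferon-induced gene, as readouts of the pathway.
Ddx58 (chr4:40239776-40240075, - strand): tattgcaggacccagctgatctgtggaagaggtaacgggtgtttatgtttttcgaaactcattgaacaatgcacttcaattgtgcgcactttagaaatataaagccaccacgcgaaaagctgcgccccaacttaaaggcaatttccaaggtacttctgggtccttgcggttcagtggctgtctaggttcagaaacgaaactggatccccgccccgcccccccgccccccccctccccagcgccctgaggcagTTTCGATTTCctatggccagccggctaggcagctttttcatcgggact
Ifih1 (chr2:62646206-62646505, - strand): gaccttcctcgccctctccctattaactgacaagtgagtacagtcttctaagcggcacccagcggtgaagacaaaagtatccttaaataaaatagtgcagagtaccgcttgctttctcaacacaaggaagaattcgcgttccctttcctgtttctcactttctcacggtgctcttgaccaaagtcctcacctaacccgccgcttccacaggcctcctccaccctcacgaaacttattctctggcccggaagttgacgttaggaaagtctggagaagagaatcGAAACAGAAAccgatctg
Mavs (chr2:131233813-131234112, + strand): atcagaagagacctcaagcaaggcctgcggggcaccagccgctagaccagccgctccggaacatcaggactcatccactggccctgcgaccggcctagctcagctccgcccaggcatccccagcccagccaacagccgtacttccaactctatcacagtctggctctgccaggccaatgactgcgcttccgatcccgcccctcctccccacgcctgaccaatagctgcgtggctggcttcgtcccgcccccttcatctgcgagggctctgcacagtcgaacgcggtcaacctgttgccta
Irf3 (chr7:44997398-44997697, + strand): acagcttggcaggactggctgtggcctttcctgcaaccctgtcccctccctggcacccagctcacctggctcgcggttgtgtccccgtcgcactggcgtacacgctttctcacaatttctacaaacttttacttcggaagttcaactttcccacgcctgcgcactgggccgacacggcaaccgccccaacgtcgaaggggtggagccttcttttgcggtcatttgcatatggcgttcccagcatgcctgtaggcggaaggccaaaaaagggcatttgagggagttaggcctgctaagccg
Ifnb1 (chr4:88522745-88523044, - strand): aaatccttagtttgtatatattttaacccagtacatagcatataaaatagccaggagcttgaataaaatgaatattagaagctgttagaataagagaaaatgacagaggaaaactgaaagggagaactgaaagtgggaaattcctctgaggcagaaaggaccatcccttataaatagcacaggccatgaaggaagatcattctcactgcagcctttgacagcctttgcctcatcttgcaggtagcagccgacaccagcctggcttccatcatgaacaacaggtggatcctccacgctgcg
Ifit3 (chr19:34583279-34583578, + strand): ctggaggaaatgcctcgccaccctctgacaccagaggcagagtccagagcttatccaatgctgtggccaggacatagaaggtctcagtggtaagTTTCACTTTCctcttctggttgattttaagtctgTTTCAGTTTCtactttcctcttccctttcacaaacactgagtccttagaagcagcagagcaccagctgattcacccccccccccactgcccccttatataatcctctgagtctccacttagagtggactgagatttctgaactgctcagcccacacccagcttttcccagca
The match lay 3 to 12 bases after the start in Ddx58, on the opposite strand, and 33 to 42 bases after the start in Ifih1. In Ifit3 the matches lay at -156 to -147 and at -122 to -113 from the start. Among interferon-induced genes with a promoter in the table, 7 of 8 held the letters. Of the interferon genes 4 of 8 held them, and Ifnb1 did not. A second sequence, TTC followed by any 3 bases and GAA, was held by 0 of the 7 sensing genes and by 8.30% of all promoters. A match is a description of the sequence only, and positions outside these windows were not searched.

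Each value below is the processed signal of a probe, an intensity after background subtraction that was not scaled between arrays. Each of the 16 probes was printed on 1 spot. A log2 difference was computed after subtracting the 75th percentile of each array (268, 229 and 254 on the empty, Mst1r and Slpi vector arrays). Its error is the SD that repeated spots of 1 array give at that signal, which covers no variation between cultures. In bulk RNA, fewer expressing cells and less RNA per cell cannot be told apart. With 1 array per group no test was possible, and no difference has a replicate check. Probes that were well above background by the scanner software made up 46.7% to 48.5% of the arrays. The spike-in probes, added in equal amounts, differed from empty vector by 0.11 (log2, after scaling) with Mst1r vector and by 0.24 with Slpi vector. Dark control spots over a signal of 50 lay mainly in rows 1 to 128, where they made up 2.71% to 4.01% and reached 481. Of the 16 probes, 4 lay in these rows. As a check of the labels, the single Mst1r probe stayed at background (4.15, 4.08 and 3.70 on the empty, Mst1r and Slpi vector arrays). Slpi was at 6459, 3843 and 6680, 0.13 ± 0.14 from empty vector on its own array, and its second probe gave 106, 91.7 and 85.8. The array values thus leave both labels unchecked, real-time PCR of the study was not analysed here, and Mst1r vector and Slpi vector mean the arrays labelled so.

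All 10 genes were well above background on all 3 arrays with their brightest probe, and the arrays of the vectors differed mainly in Zbp1. Of all 22911 named genes, 12561 were so by brightest probe on both the empty and Mst1r vector arrays. On both the empty and Slpi vector arrays 12762 were. With Mst1r vector, 9 of the 10 genes were higher than with empty vector, with a median log2 difference of 0.31. Over all 12561 named genes well above background on both arrays, 40.1% were higher and the median was -0.04. Relative to that median, which no scaling changes, the sensing genes stood at a median of 0.36, and 9 of 10 were above it. In the rows after the first 128 alone the relative median was 0.16, with 6 of 7 genes above, and with the mean over all probes of a gene 8 of 10 were above. With Slpi vector 6 of the 10 were higher and the median was 0.01, and of all 12762 named genes 51.7% were higher with a median of 0.0052. The sign of that sensing gene median depended on the scaling (0.18 under median scaling, -0.23 under spike-in scaling).

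**Figure D1:**
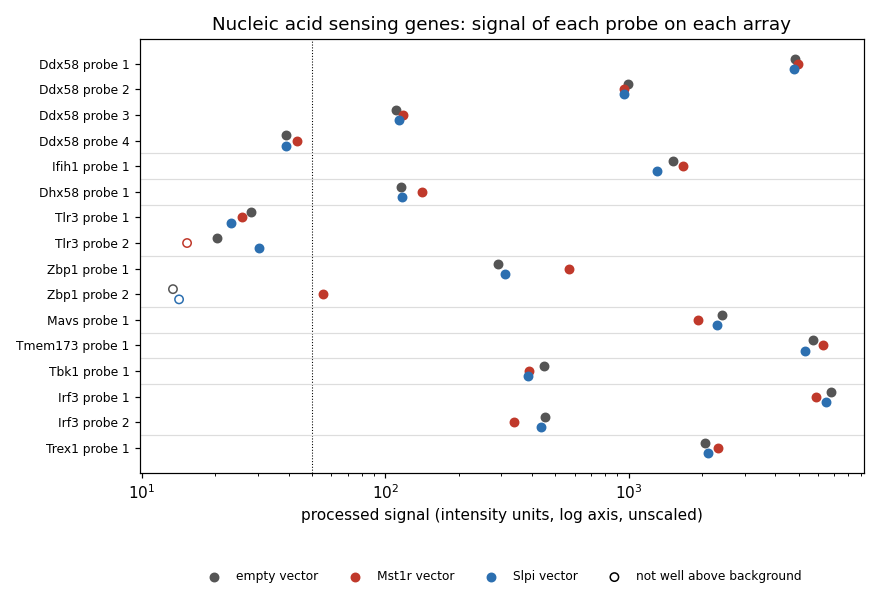
Processed signal (intensity units, log axis, not scaled between arrays) of each of the 16 probes, 1 point per array, with open points for probes not well above background and a dotted line at a signal of 50. The points of most probes lie close together, and Zbp1 stands out, at 567 with Mst1r vector against 291 and 310 on the other arrays for its first probe. Signals of different probes cannot be compared as levels.

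A gene was called apart at a difference of at least 1.5-fold after scaling, with a signal over 50 on the brighter array. Tlr3 was under that signal, so 9 of the 10 genes could be called, and the background shares cover only genes over it. Against empty vector, 1 of the 10 genes (Zbp1) passed 1.5-fold upward with Mst1r vector, where the background over 12047 named genes was 4.91%. It was also at least 2-fold higher (background 3.21%). None of the 10 was at least 1.5-fold lower (background 3.98%). With Slpi vector 0 of the 10 were at least 1.5-fold higher (background 2.31%) and 0 were lower (background 2.44%). A count of 1 in these 9 is near these background shares, and the shift with Mst1r vector was one of small differences.

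Among the cytosolic RNA helicases, Ddx58, the sensor of short RNA with a triphosphate end, had 4 probes. The brightest (row 184) gave 4835, 4959 and 4783 on the empty, Mst1r and Slpi vector arrays. The other probes gave 994, 961 and 958 (row 373), 111, 118 and 114 (row 164), and 38.9, 43.3 and 39.2 (row 247), in the same order of arrays. The unscaled signals of each probe were nearly level on the 3 arrays. After scaling, the Mst1r vector array was higher than empty vector with all 4 probes, by 0.27 ± 0.14, 0.18 ± 0.15, 0.33 ± 0.17 and 0.39 ± 0.30 (log2). The 4 probes share a transcript accession and are not replicates of the condition. Without scaling the brightest probe differed by 0.04 with Mst1r vector. With Slpi vector it differed by 0.06 ± 0.14.

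Ifih1, the sensor of long double-stranded RNA, had 1 probe in row 61, among the rows that held the bright control spots. The part of such spots in its values was not tested. The probe gave 1527, 1668 and 1304 on the empty, Mst1r and Slpi vector arrays. The Mst1r vector array was the highest and the Slpi vector array the lowest. From empty vector, Mst1r vector differed by 0.36 ± 0.12 (log2) and Slpi vector by -0.15 ± 0.12. The first came to 0.13 without scaling and the second to 0.02 under median scaling. Between the Mst1r and Slpi vectors it was 0.51 ± 0.12, or 1.42-fold, which came to 0.64 under spike-in scaling, 0.37 under median scaling and 0.36 without scaling. The promoter of Ifih1, like that of Ddx58, holds the capitals printed above.

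Dhx58, the third helicase of the family, had 1 probe in row 164. It gave 116, 142 and 118 on the empty, Mst1r and Slpi vector arrays. The Mst1r vector array was 0.52 ± 0.17 above empty vector, or 1.44-fold, just under the 1.5-fold limit (0.29 without scaling), while the Slpi vector array was 0.10 ± 0.17 above it. Over the 3 helicases the median log2 difference from empty vector was 0.36 with Mst1r vector (0.27 to 0.52) and 0.06 with Slpi vector (-0.15 to 0.10). All 3 were higher with Mst1r vector than with empty vector under each scaling tried, without scaling included.

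Zbp1 had 2 probes with different transcript accessions. The brighter (row 336) gave 291, 567 and 310 on the empty, Mst1r and Slpi vector arrays. The Mst1r vector array was far above the other two, which lay close to each other. On the log2 scale Mst1r vector was 1.19 ± 0.15 above empty vector, or 2.29-fold, and Slpi vector 0.17 ± 0.15. Between the Mst1r and Slpi vectors it was 1.02 ± 0.15, or 2.03-fold. The second probe (row 246) gave 13.4, 55.3 and 14.2, and passed the background limit on the Mst1r vector array alone. For such a probe a bound is given, with the dim array set to the lowest signal well above background on it (18.9 with empty vector, 16.6 with Slpi vector). The second probe on the Mst1r vector array thus exceeded empty vector at least 3.42-fold and Slpi vector at least 3.71-fold. Neither probe lay in rows 1 to 128, and across the alternatives the brighter probe stayed between 0.96 and 1.23 above empty vector.

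Partners of Zbp1 in cell death were measured as well. Ripk3, the kinase that Zbp1 recruits, did not pass the background limit on the arrays (4.37, 4.32 and 3.95). Mlkl, which breaks the membrane downstream of Ripk3, gave 2524, 2464 and 2524 with empty, Mst1r and Slpi vector and was 0.20 ± 0.12 above empty vector with Mst1r vector.

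Tlr3 was dim. Its brighter probe (row 334) gave 27.9, 25.8 and 23.3 on the empty, Mst1r and Slpi vector arrays, all under the signal minimum of 50. The log2 differences from empty vector were 0.12 ± 0.30 and -0.19 ± 0.30, within the error between spots, and the first was -0.11 without scaling. The second probe (row 21) gave 20.4, 15.3 and 30.3, and fell short of the background limit with Mst1r vector. With Slpi vector it was 0.65 ± 0.30 above empty vector, so the probes of Tlr3 disagreed in direction with Slpi vector. The second probe lay among the rows that held the bright control spots.

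The adaptors differed from each other. Mavs (row 185) gave 2415, 1932 and 2305 on the empty, Mst1r and Slpi vector arrays. It was the only one of the 10 genes below empty vector with Mst1r vector, by -0.09 ± 0.12, which is within the error between spots. With Slpi vector the difference was 0.01 ± 0.12. Tmem173, the adaptor of the DNA route, had 1 probe in row 128 and gave 5741, 6299 and 5324. The Mst1r vector array was the highest, 0.36 ± 0.14 above empty vector, which came to 0.13 without scaling, within the error, and the Slpi vector array was within the error at -0.03 ± 0.14. Row 128 is the last of the rows that held the bright control spots, which reached 207 with empty vector and 289 with Mst1r vector. The part of such spots in the Tmem173 values was not tested.

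The kinase and the factor on which both routes converge stood near empty vector. Tbk1 (row 291) gave 449, 390 and 386 on the empty, Mst1r and Slpi vector arrays. Its log2 differences were 0.03 ± 0.15 and -0.14 ± 0.15, both within the error between spots, and both changed sign with the scaling (-0.20 without scaling and 0.03 under median scaling). Irf3 had 2 probes with the same accession, which gave 6777, 5881 and 6493 (row 202) and 453, 339 and 439 (row 235). The brighter differed by 0.03 ± 0.14 with Mst1r vector and by 0.02 ± 0.14 with Slpi vector. The dimmer was at -0.19 ± 0.15 with Mst1r vector, so the probes disagreed in sign by little more than their error. Over Mavs, Tmem173, Tbk1 and Irf3 the median log2 difference was 0.03 with Mst1r vector and -0.0097 with Slpi vector.

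Trex1 (row 55), the nuclease that removes cytosolic DNA, gave 2064, 2325 and 2123 on the empty, Mst1r and Slpi vector arrays. On the log2 scale Mst1r vector was 0.40 ± 0.12 above empty vector, or 1.32-fold, and Slpi vector 0.12 ± 0.12. The first came to 0.17 without scaling. The probe lay among the rows that held the bright control spots, and their part in these values was not tested. The order of the arrays was the same as for Zbp1 and Dhx58, with the Mst1r vector array the highest in each.

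**Figure D2:**
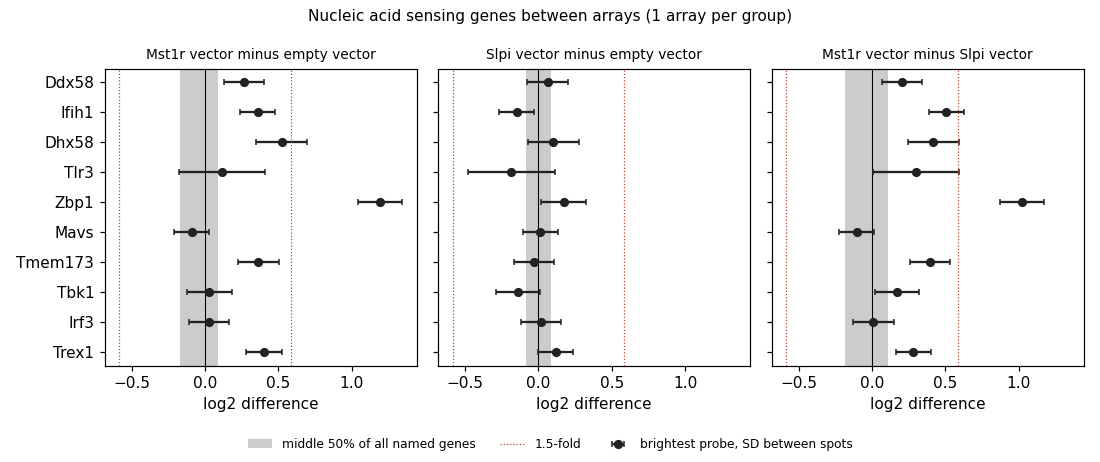
Log2 difference between arrays of the brightest probe of each sensing gene, with 1 array per group, bars for the error between spots, a grey band for the middle 50% of all named genes and dotted lines at 1.5-fold. Zbp1 is the point past the 1.5-fold line, at 1.19 from empty vector and 1.02 from Slpi vector with Mst1r vector. Another scaling shifts the points and the band of a panel together.

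The vectors were also compared with each other, although both had been set against the same empty vector array. With Mst1r vector, 9 of the 10 genes were higher than with Slpi vector, with a median of 0.29, against 41.8% of all 12569 named genes and a median of -0.05. At least 1.5-fold higher was 1 gene (Zbp1, background 4.94%), which was also at least 2-fold higher (background 3.07%), and 0 were at least 1.5-fold lower (background 3.88%). Under spike-in scaling 2 genes passed, the second being Ifih1. Mavs was below Slpi vector on the Mst1r vector array, by -0.10 ± 0.12, which became 0.03 under spike-in scaling. By probe, 12 of the 14 probes that were well above background on both arrays were higher with Mst1r vector than with Slpi vector, and as many were higher than with empty vector. Probes of the same gene, such as the 4 of Ddx58, are not independent, and no share over all probes was computed beside this count.

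The distribution of all named genes shows how small these differences were. For Mst1r vector against empty vector the middle 90% of named genes lay between -0.44 and 0.50, so Zbp1 and Dhx58 (0.52) lay above it and the other 8 genes within it. For Slpi vector against empty vector the middle 90% lay between -0.28 and 0.24, and all 10 genes lay within it.

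**Figure D3:**
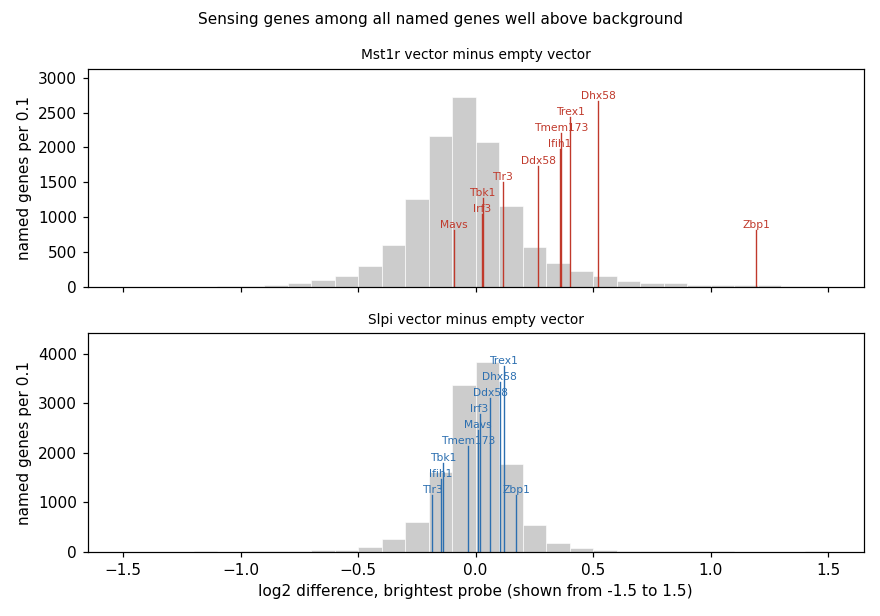
Number of named genes per 0.1 of log2 difference from empty vector (brightest probe, well above background on both arrays, shown from -1.5 to 1.5), with a line for each sensing gene whose height has no meaning. With Mst1r vector the lines lie between -0.09 and 1.19, and with Slpi vector between -0.19 and 0.17. Both panels are scaled to the 75th percentile, and another scaling moves genes and bars together.

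Further genes of the pathways were examined in lists. In total 79 of 82 entries were matched (Ifnl2, Mx1 and Mx2 were not). The background at 1.5-fold applies to these lists as well. It was 4.91% higher and 3.98% lower with Mst1r vector, and 2.31% and 2.44% with Slpi vector. Counts of detected genes, also of the markers below, stand beside 12561 of all 22911 named genes on the empty and Mst1r vector arrays. Of the RNA sensing partners 0 of 13 were at least 1.5-fold higher or lower with either vector than with empty vector, and the median log2 difference was 0.05 with Mst1r vector and 0.0078 with Slpi vector. These included Trim25, a ligase for the Ddx58 product, and Eif2ak2, a kinase activated by double-stranded RNA. Oasl1, an interferon-induced member of the list, came nearest to the limit, at 0.57 ± 0.14 with Mst1r vector, with signals of 7349, 9333 and 7238, and passed it under median scaling. It was chosen after its value was seen.

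Of the DNA sensing partners 17 of 18 were well above background on all arrays. The cGAS gene Mb21d1 was dim, at 28.0, 30.1 and 31.8 on the empty, Mst1r and Slpi vector arrays, and its second probe stayed below the background limit on all 3. Its log2 differences from empty vector were 0.34 ± 0.30 and 0.26 ± 0.30. Aim2, a sensor of DNA that forms inflammasomes, was at 347, 354 and 345. Ifi204, an interferon-induced protein that binds DNA, was at 4024, 7227 and 3826 on the empty, Mst1r and Slpi vector arrays. It was the only DNA sensing partner at least 1.5-fold apart from empty vector with Mst1r vector, at 1.07 ± 0.13, and differed by 0.01 ± 0.12 with Slpi vector. Its probe lay in row 38, among the rows that held the bright control spots. The part of such spots in the Ifi204 values was not tested. Over the list the median was -0.05 with Mst1r vector and 0.03 with Slpi vector. Between the vectors Prkdc, the catalytic subunit of a DNA repair kinase, passed 1.5-fold downward on the Mst1r vector array (-0.62 ± 0.17, from signals of 127 and 217), but not under spike-in scaling, the percentile over detected probes or normexp background correction (-0.35). Prkdc falls outside the rule for named genes and was chosen after its value was seen.

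Of the endosomal partners 5 of 6 were well above background on all arrays. The exception was Unc93b1, which carries nucleic acid receptors to endosomes. It gave 21.5, 13.0 and 68.8 and was 1.75 ± 0.24 above empty vector with Slpi vector, which came to 0.74 with normexp background correction. Its single probe lay in row 71, and control spots without target in rows 1 to 128 reached 481 on that array. The part of such spots in this value was not tested. The adaptors Ticam1 and Myd88 were at 251, 193 and 266 and at 1779, 1486 and 1852, with differences from empty vector of at most 0.16 in size.

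Among 24 signalling partners, 23 were well above background on all arrays, Ripk3 being the exception. Irf1, an interferon-induced transcription factor, was the only one at least 1.5-fold apart from empty vector. It gave 3070, 5045 and 3157 on the empty, Mst1r and Slpi vector arrays, a difference of 0.95 ± 0.13 with Mst1r vector and 0.12 ± 0.12 with Slpi vector. Its second probe, in row 383, gave 71.8, 126 and 86.9, with a difference of 1.04 ± 0.17 with Mst1r vector. The median of the list was -0.0023 with Mst1r vector and 0.02 with Slpi vector. Irf7, the related factor that amplifies interferon genes, was at 7535, 9251 and 7217, and 0.53 ± 0.14 above empty vector with Mst1r vector. Its value was singled out after it was seen.

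With Mst1r vector the list medians of the interferon genes (0.43) and interferon-induced genes (0.52) were above that of the sensing genes (0.31). That of the signalling partners (-0.0023) was below it. The interferon gene median covers 5 genes and is the value of Ifna2, 0.43 ± 0.30, with signals under 50. Ifnb1 gave 144, 383 and 122 on the empty, Mst1r and Slpi vector arrays (row 207). The Mst1r vector array was above both others, by 1.64 ± 0.16 from empty vector, or 3.11-fold, and by 1.80 ± 0.16 from Slpi vector, or 3.47-fold. Slpi vector stood at -0.16 ± 0.17 from empty vector. The other interferon genes were dim, and Ifna4 and Ifne stayed below the background limit on all arrays. Ifna1 gave 62.7, 60.2 and 52.4, Ifna2 gave 31.6, 36.3 and 22.7, Ifna5 gave 42.2, 50.8 and 39.7, and Ifnl3 gave 50.1, 46.9 and 51.5. Their differences from empty vector with Mst1r vector were 0.13 to 0.50, each with an error of 0.30. The interferon alpha genes are nearly identical in sequence, and probes for them may bind each other's transcripts.

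All 11 matched interferon-induced genes were above empty vector with Mst1r vector, also relative to the median of all named genes, with a median log2 difference of 0.52. Of the 11, 5 were at least 1.5-fold higher (background 4.91%). Ifit3, a binder of foreign RNA complexes, gave 462, 1365 and 389 on the empty, Mst1r and Slpi vector arrays, a difference of 1.79 ± 0.14. Rsad2, the antiviral enzyme viperin, gave 342, 906 and 258, a difference of 1.64 ± 0.15, and its second probe showed 1.29 ± 0.24. Ifit1, a sensor of RNA without a methylated cap, gave 830, 1584 and 704 (1.16 ± 0.14). Cxcl10, a chemokine for T cells, gave 5661, 10333 and 4875 (1.10 ± 0.14). Stat2, a factor of the interferon response, gave 1443, 2125 and 1460 (0.79 ± 0.12, and 0.56 without scaling, under the limit). Its second probe, in row 32, gave 64.5, 19.4 and 6.27 and was well above background with empty vector only. That probe went the other way, at least 2.83-fold lower with Mst1r vector than with empty vector. With Slpi vector the median of the list was -0.14, 0 of 11 were at least 1.5-fold apart from empty vector, and 8 were lower. Zbp1 is known to be induced by interferon, and the part of interferon in its values was not tested.

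**Figure D4:**
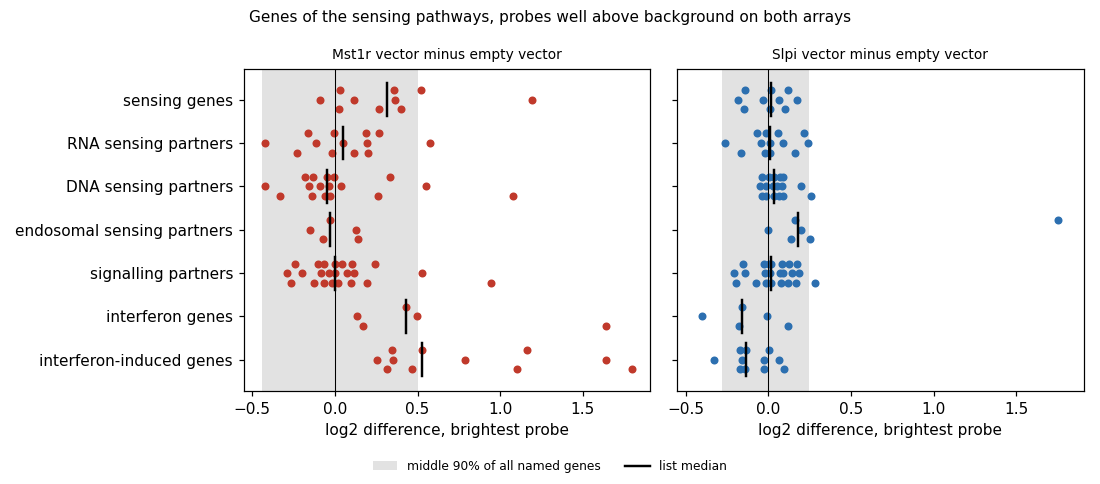
Log2 difference from empty vector of the brightest probe of each gene in the lists (points, well above background on both arrays), with the list median as a black line and the middle 90% of all named genes in grey. With Mst1r vector the medians were 0.31 for the sensing genes, 0.43 for the interferon genes and 0.52 for the interferon-induced genes, and between -0.05 and 0.05 for the partner lists. All points of a panel shift together under another scaling, and relative to the median of all named genes the first 3 medians were 0.36, 0.47 and 0.57. The interferon gene median covers 5 genes.

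Markers of the cells were examined beside these values. Of the hepatocyte markers 6 of 11 were well above background on all arrays (Afp, Alb, Apoe, Trf, Krt8 and Krt18). Ttr, Apoa1, Fgb and Serpina1a were so on some arrays only, and Hnf4a, a factor that defines hepatocytes, on none. Of 8 macrophage and leukocyte markers 4 were well above background on all arrays (Csf1r, Cd14, Cd3e and Cd68). The pan-leukocyte marker Ptprc and the macrophage marker Emr1 stayed below the background limit on all arrays. The summed signal of the 8 was 5036, 5079 and 4973 on the empty, Mst1r and Slpi vector arrays. Of the 4 detected markers 2 were higher than empty vector with Mst1r vector by their brightest probes and 2 were lower. Csf1r, a receptor of macrophages, differed by 0.45 ± 0.12 and Cd3e, a T cell marker, by 0.23 ± 0.15. Cd14, a coreceptor on macrophages, differed by -0.15 ± 0.14 and the macrophage marker Cd68 by -0.26 ± 0.15. Their part in the results was not tested. Of the endothelium markers 1 of 3 was well above background on all arrays, and of the fibroblast or stellate markers 3 of 4. The last were 0.07 to 0.42 above empty vector with Mst1r vector, where Col1a1 gave 6508, 6677 and 5718.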

How the data were processed

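Cy3-labelled cRNA from 100 ng of RNA of Hepa1c1c7 cells was hybridised to single-colour Agilent SurePrint G3 Mouse arrays, 1 per group, grouped by the sample labels. The authors extracted the deposited intensity values with Feature Extraction 12.0.3.1 per the file headers, on 1 slide in 1 scan (array design mm9). The position on the slide and the group cannot be told apart. The deposited files also hold marks, written as 0 or 1, for signal well above background, for saturation (0 spots on all arrays) and for outliers, and a table of the whole series holds the same intensity per probe without scaling, equal to the means of a probe's spots within 0.01 (log2) for nearly all probes.

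From the deposited intensity, the log2 processed signal was averaged over a probe's spots without outlier marks, and each array's 75th percentile over its 56605 probes for transcripts was subtracted, as in the methods of the study. Probes were named through transcript accession (32994 matched), and a gene was represented by its brightest probe. The error of a difference combines, over the 2 arrays, the SD between spots of probes printed at least 10 times or of spike-in controls. This SD on 1 array was 0.26 for log2 signals under 4, 0.12 for those from 6 to 8 and 0.098 for those from 12 to 14. The number of arrays limits the precision. The signal minimum of 50 follows the study, and the limits of 1.5-fold and 2-fold stand in for a test. Python 3.11.15, pandas 2.3.3, numpy 2.4.6, R 4.3.3 and limma 3.58.1 (normexp, offset 50) were used. The calculation of differences was checked on simulated signals, and no test between groups was made.

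The genes and lists were chosen with earlier results of these data known. The rule for named genes took all 10 genes with every probe, each partner at least 1.5-fold apart from empty vector with a signal over 50 on the brighter array, the interferon genes, Mst1r and Slpi. The alternatives were 4 other scalings, background correction by normexp, outlier spots kept, the mean over all probes of a gene, rows after the first 128 alone, no signal minimum and the table of the series. They were applied to the partner and interferon lists after the data were seen. Control spots took no part in the comparisons, and the levels measured by real-time PCR were not analysed here.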

Additional observations from a re-analysis of the deposited data

How the results depend on the processing

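The median log2 difference of the 10 sensing genes with Mst1r vector from empty vector was 0.31, and it came to 0.082 without scaling and to 0.12 with the rows after the first 128 alone. The latter left 7 genes, since Ifih1, Tmem173 and Trex1 have their single probe in the upper rows. Between the Mst1r and Slpi vectors the median of 0.29 came to 0.14 without scaling. With Slpi vector the median of 0.01 came to 0.18 under median scaling and to -0.23 under spike-in scaling. The median with Mst1r vector was above 0 under each alternative, against both other arrays. Relative to the median of all named genes, no scaling changed it (0.36 from empty vector and 0.34 from Slpi vector). The count of genes at least 1.5-fold higher with Mst1r vector than with Slpi vector was 1, and 2 under spike-in scaling. The other sensing gene counts at 1.5-fold did not change under the alternatives. Of 261 sensing gene values under the alternatives, 218 moved by less than the error between spots and 43 by more. Several alternatives could hardly move a value. The table of the series holds the same intensity, and keeping outlier spots changes nothing for a probe on 1 spot. The mean over all probes leaves a gene with 1 probe unchanged. The partner and interferon lists were run through the same alternatives after the data were seen. Of 169 values of their genes past 1.5-fold, 130 moved by less than the error and 39 by more, and 0 changed sign. Here too several alternatives could hardly move a value. For Mst1r vector against empty vector, the RNA sensing partners changed from 0 to 1 higher under the percentile over detected probes, median scaling and normexp, and from 0 to 1 lower without scaling. The DNA sensing partners changed from 1 to 0 higher in the rows after the first 128, and from 0 to 1 lower without scaling or without the signal minimum. The interferon genes changed from 1 to 2 higher without the signal minimum, and the interferon-induced genes from 5 to 2 higher in the rows after the first 128, where Ifit1, Ifit3 and Stat2 lose the probe used, and to 4 without scaling. For Slpi vector against empty vector, the endosomal partners changed from 1 to 0 higher in those rows, and without the signal minimum the DNA sensing partners and the interferon genes each changed from 0 to 1 lower. Between the Mst1r and Slpi vectors, spike-in scaling changed the higher counts from 0 to 2 for RNA sensing partners and from 1 to 2 for DNA sensing partners, signalling partners and interferon genes (3 without the signal minimum). There the higher DNA sensing partner and the lower endosomal partner were lost (0) in the rows after the first 128, the latter also with the mean over all probes. The lower DNA sensing partner was lost (0) under the percentile over detected probes, spike-in scaling and normexp. The interferon-induced count of 6 came to 3 in those rows, to 4 under median scaling or without scaling, to 5 under normexp and to 8 under spike-in scaling. The scaling moved the median of all named genes from -0.04 to -0.27 with Mst1r vector and from 0.0052 to 0.17 and -0.24 with Slpi vector. Signals of Tlr3, Mb21d1 and the interferon alpha genes were close to the limit of detection, where the error of a difference was 0.30 or more. No paired analysis was possible because each group held 1 array.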
